A study of Homo sapiens with 4 samples.

Results

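Small nucleolar RNA host genes were followed in leukemia cells after degradation of the BET proteins. The genes were chosen by symbol alone: every gene named SNHG followed by a number, plus GAS5, ZFAS1 and EPB41L4A-AS1, which have the same gene structure under other names. The rule gave 31 genes, of which 30 had a row among the 64252 genes of the count table and 28 had enough counts to be tested. SNHG4 is not analysed here. After dBET1, 7 host genes were higher and 11 were lower, and the summed RNA of the family was no lower than in the controls.

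A small nucleolar RNA host gene is transcribed and spliced like a messenger RNA gene, but its product of use is cut from an intron. The intron holds a small nucleolar RNA (snoRNA): C/D snoRNAs guide 2′-O-methylation of ribosomal RNA, H/ACA snoRNAs guide its pseudouridylation, and small Cajal body RNAs (scaRNAs) guide the same changes in spliceosomal RNA. The spliced exons that remain are long noncoding RNAs, many of them are removed by nonsense-mediated decay when ribosomes read them, and several, GAS5 first among them, begin with the terminal oligopyrimidine (TOP) tract of ribosomal protein genes. In leukemia cells these genes serve the ribosome supply of growth, and several host RNAs have been studied as regulators in cancer.

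The cells are labelled NB4, a promyelocytic leukemia line, and were kept for 24 h with DMSO as the solvent control or with 8 µM dBET1 (2 libraries per group). dBET1 links a BET bromodomain ligand to one that recruits the ubiquitin ligase substrate receptor CRBN, which leads to degradation of the BET proteins. No genetic change separates the groups, each group comes from 1 cell line, and the labels do not say whether the 2 libraries of a group were separate cultures, so p-values measure only the spread between these libraries. Totals ran from 28019956 to 34685645 counts per library, and 24589 to 28356 genes had at least 1 count, more in both dBET1 libraries than in both DMSO libraries. Defining genes of promyelocytes were near 0: ELANE and CTSG had 0 counts in every library, MPO had 0 in both DMSO libraries and 22 and 10 with dBET1, and the 5 granule genes summed to 0.521 and 0.534 CPM (counts per 1000000 of the normalized library) with DMSO and to 1.83 and 0.819 with dBET1. The 7 erythroid genes GATA1, KLF1, HBG1, HBG2, HBZ, HBA1 and HBA2 summed to 5394 and 6577 CPM with DMSO and to 3132 and 3080 CPM with dBET1, and all 7 were lower after dBET1. The label NB4 is therefore kept here as a name only, and the part of this change in the host gene values was not tested. In bulk RNA, fewer cells that express a gene and less of its RNA per cell cannot be told apart.

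The starts of the transcripts are shown first. A pyrimidine tract at the first base is a feature that some of the host genes share with ribosomal protein genes. It stood at the RefSeq start of 7 of the 27 host genes with a RefSeq promoter, so most lack it there. The symbols do not encode it. The windows run from 20 bases before the RefSeq start to 30 bases from it on hg38, and capitals mark a first base C followed by at least 4 bases that are C or T. ZFAS1 (chr20:49278622-49278671, plus strand) and SNHG32 (chr6:31834896-31834945, plus strand) rose after dBET1, SNHG5 (chr6:85678704-85678753, minus strand) was not called, and SNHG19 (chr16:2155329-2155378, minus strand) fell. SNHG30 (chr17:35568094-35568143, plus strand) and SNHG17 (chr20:38435299-38435348, minus strand), which had the largest falls among the called host genes, have no such tract at the RefSeq start. EPB41L4A-AS1 and SNHG28, which rose and are not shown, have none there either.
ZFAS1: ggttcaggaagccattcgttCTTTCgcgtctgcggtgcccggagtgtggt
SNHG32: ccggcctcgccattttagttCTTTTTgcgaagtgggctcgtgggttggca
SNHG5: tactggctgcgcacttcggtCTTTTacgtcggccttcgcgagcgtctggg
SNHG19: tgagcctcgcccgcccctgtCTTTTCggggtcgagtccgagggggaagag
SNHG30: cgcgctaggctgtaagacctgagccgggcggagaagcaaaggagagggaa
SNHG17: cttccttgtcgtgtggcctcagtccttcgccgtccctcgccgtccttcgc
For GAS5 and SNHG29 the RefSeq start lies elsewhere, and the first 30 bases of the canonical transcript in GENCODE release 44 begin with the tract.
GAS5: CTTTTCgaggtaggagtcgactcctgtgag
SNHG29: CTTTTCattcccgttgttatggagggccac

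RNAs that lie within the bounds of the hosts are shown for hosts that moved in opposite directions, to make plain what kind of product each gene carries. Positions and names of these RNAs are from RefSeq and the letters from hg38. In the C/D snoRNAs, capitals mark the C box TGATGA near the first base and the D box CTGA near the last. SNORD44 from GAS5 (chr1:173865968-173866028, minus strand), SNORD48 from SNHG32 (chr6:31835263-31835326, plus strand) and SNORD12C from ZFAS1 (chr20:49278945-49279023, plus strand) guide methylation of ribosomal RNA and sit in hosts that rose, whereas SNORD7 from SNHG30 (chr17:35573657-35573753, plus strand) guides methylation of U6 spliceosomal RNA and sits in the host that fell the most.
SNORD44: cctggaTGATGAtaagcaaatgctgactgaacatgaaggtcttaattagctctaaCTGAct
SNORD48: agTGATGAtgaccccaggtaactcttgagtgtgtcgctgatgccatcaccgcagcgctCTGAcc
SNORD12C: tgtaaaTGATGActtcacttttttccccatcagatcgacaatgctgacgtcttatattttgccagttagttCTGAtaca
SNORD7: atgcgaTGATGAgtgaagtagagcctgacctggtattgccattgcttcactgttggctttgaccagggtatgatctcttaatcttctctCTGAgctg
In the H/ACA snoRNAs, capitals mark the ACA box near the last base. SNORA71C (chr20:38429667-38429804, minus strand) and SNORA9 (chr7:44985378-44985510, minus strand) sit in SNHG17 and SNHG15, which fell, and SNORA13 (chr5:112161485-112161617, plus strand) sits in EPB41L4A-AS1, which rose.
SNORA71C: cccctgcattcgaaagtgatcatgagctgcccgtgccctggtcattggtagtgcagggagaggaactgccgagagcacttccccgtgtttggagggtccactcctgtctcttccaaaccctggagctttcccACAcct
SNORA9: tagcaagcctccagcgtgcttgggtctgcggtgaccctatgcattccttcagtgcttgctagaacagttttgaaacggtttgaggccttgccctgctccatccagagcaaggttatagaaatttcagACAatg
SNORA13: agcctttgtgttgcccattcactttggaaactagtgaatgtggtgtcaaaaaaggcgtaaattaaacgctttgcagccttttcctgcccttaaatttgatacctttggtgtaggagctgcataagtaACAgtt

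Of the 28 tested host genes, 7 (25.0%) were higher and 11 (39.3%) lower after dBET1 at an adjusted p under 0.05, by the quasi-likelihood test of edgeR, with p-values adjusted over 17971 genes by the Benjamini-Hochberg method. Among all tested genes 28.0% were higher and 27.6% lower, so the share of higher host genes was near that of all genes and the share of lower ones was above it. The split depends on the scale: with library totals in place of TMM factors, 10 host genes were higher and 6 lower, with SNHG5, SNHG8 and SNHG22 then among the higher ones. Without dBET1 replicate 1, 7 were lower. The median log2 fold change of the tested host genes was -0.02, against 0.05 for all tested genes. It was -0.17 without DMSO replicate 1 and -0.21 without dBET1 replicate 2, where the median of all tested genes was 0.09 and 0.04. With an absolute log2 fold change above 1 as a further limit, SNHG32 and SNHG28 were higher and SNHG30 was lower, beside 16.9% and 8.54% of all tested genes. SNHG28 passed the count filter only through its dBET1 libraries, so that filter and its call are not independent. The dBET1 and DMSO libraries did not overlap in CPM for 21 of 28 host genes, beside 79.3% of all tested genes. Among the 8508 tested genes with an average log2 CPM of at least 4, a level chosen after the values were seen, 20.7% were higher and 45.7% lower, and of the 18 host genes at that level 6 were higher and 9 lower, with a median of -0.21 in both sets.

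**Figure D1:**
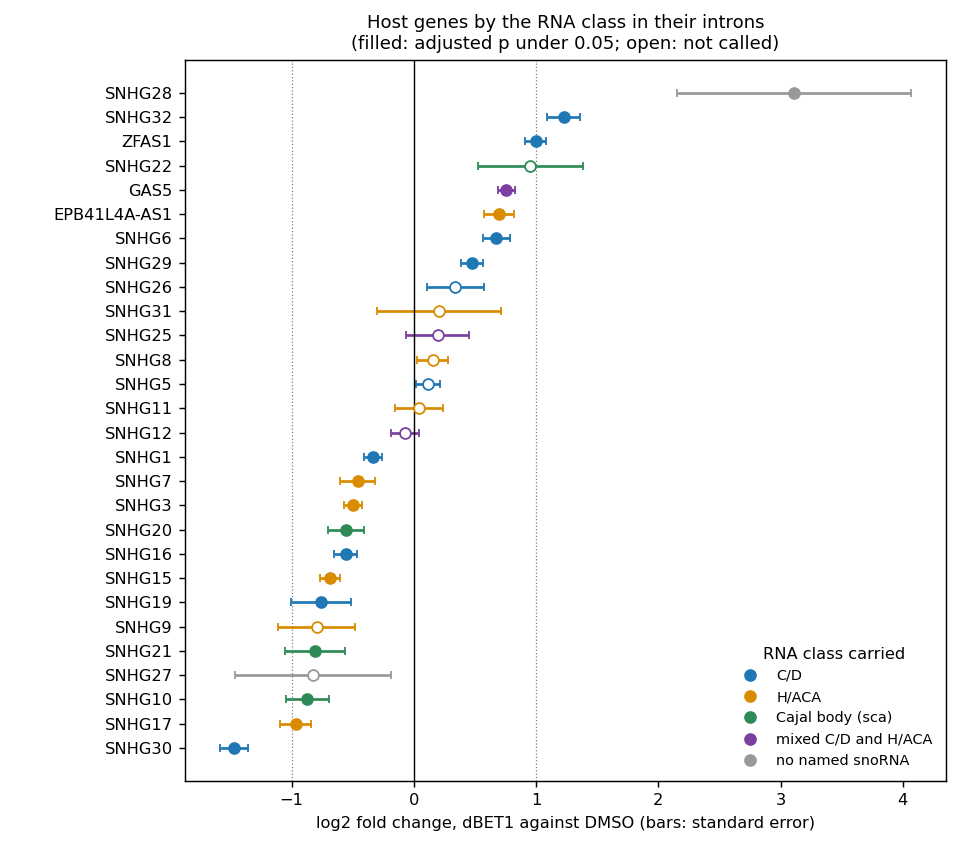
Log2 fold change of each tested host gene (dBET1 against DMSO, x axis, bars are standard errors), ordered by size on the y axis. Colours give the class of the RNAs within the bounds of each gene, where introns were not checked. Filled points mark an adjusted p under 0.05. SNHG28, at a fitted 3.11 from counts of 0 to 18, is the point at the far right, SNHG30 at -1.47 is at the far left, and the other called genes lie between -0.97 and 1.22.

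Of the 7 host genes that rose, 4 carry C/D snoRNAs alone. SNHG32 (chr6:31834608-31839766), the host of SNORD48 and SNORD52, had 816 and 917 counts with DMSO and 2136 and 1933 with dBET1. Both dBET1 libraries lay far above both DMSO libraries, and the mean went from 28.8 ± 5.39 to 67.2 ± 5.55 CPM (SD, n = 2), a log2 fold change of 1.22 with a standard error (SE) of 0.137 and an adjusted p of 0.000226. ZFAS1 (chr20:49278178-49299600), which holds SNORD12, SNORD12B and SNORD12C, had 1504 and 1344 counts with DMSO and 2897 and 2769 with dBET1. Its mean went from 47.0 ± 1.23 to 93.6 ± 4.11 CPM, with the libraries of each group close together, and the log2 fold change was 1.00 with a standard error of 0.0850 and an adjusted p of 6.4e-05. At 2 decimals the value equals the limit of 1 that the study used, and unrounded it lay just under it.

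GAS5 (chr1:173858559-173868882), named for its rise in growth-arrested cells, carries 11 RNAs within its bounds, 10 of them C/D snoRNAs, and is one of the most abundant members. It had 9118 and 8032 counts with DMSO and 14226 and 14667 with dBET1. Replicates were close, at 283 ± 4.52 and 477 ± 4.57 CPM, and the log2 fold change of 0.76 had the smallest standard error of the called host genes, 0.0672, with an adjusted p of 7.6e-05. SNHG29 (chr17:16438767-16480249), host of SNORD49A, SNORD49B and SNORD65 and the member with the highest CPM in both groups, had 10480 and 10722 counts with DMSO and 14803 and 14777 with dBET1. This gave 351 ± 42.7 and 489 ± 6.48 CPM and a log2 fold change of 0.48 (SE 0.0917, adjusted p = 0.00323).

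SNHG6 (chr8:66920561-66926398), the host of SNORD87, had 2588 and 2746 counts with DMSO and 4401 and 4131 with dBET1, a log2 fold change of 0.67 (SE 0.110, adjusted p = 0.00149). EPB41L4A-AS1 (chr5:112160526-112164818) holds SNORA13, an H/ACA RNA that guides pseudouridylation of ribosomal RNA, and is the only one of the 9 tested hosts of H/ACA snoRNAs alone that was called higher. It had 583 and 577 counts with DMSO and 961 and 918 with dBET1, a log2 fold change of 0.69 (SE 0.121, adjusted p = 0.00198). SNHG28 (chr1:159834480-159855071) was barely detected, with 0 and 3 counts against 10 and 18. Taken against a floor of 3 counts per DMSO library its level was at least 4.64-fold higher. The adjusted p of 0.0256 did not hold with DESeq2 or without the count filter (adjusted p = 0.126 and 0.114). Without DMSO replicate 1 the log2 fold change was 2.04. SNHG28 passed the count filter only through its dBET1 libraries, so its call is no independent support for a rise. It was not tested without dBET1 replicate 2, with counts divided by 2 or with at least 10 counts in every library.

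SNHG30 (chr17:35568050-35574900), the host of SNORD7, showed the largest fall among the called host genes. It had 1440 and 1342 counts with DMSO and 526 and 474 with dBET1. The mean went from 45.9 ± 2.56 to 16.5 ± 1.41 CPM, 2.78-fold lower, with a log2 fold change of -1.47, a standard error of 0.114 and an adjusted p of 4.1e-05. SNHG17 (chr20:38419638-38435409), which holds 4 named RNAs of the SNORA71 family, had 1074 and 1113 counts with DMSO and 553 and 568 with dBET1. Its mean went from 36.3 ± 4.73 to 18.5 ± 0.128 CPM, a log2 fold change of -0.97 (SE 0.125, adjusted p = 0.000451). With DESeq2, SNHG17 passed the fold change limit as well, and SNHG30, SNHG17 and SNHG32 were then the host genes past both limits.

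SNHG15 (chr7:44983019-44986961), a short-lived RNA that holds SNORA9, had 2130 and 1875 counts with DMSO and 1229 and 1252 with dBET1. It fell from 66.0 ± 1.02 to 41.0 ± 0.0450 CPM, a log2 fold change of -0.69 (SE 0.0846, adjusted p = 0.000358). SNHG16 (chr17:76557727-76670985), with SNORD1A, SNORD1B and SNORD1C, had 7263 and 6653 counts against 4303 and 5140, and SNHG3 (chr1:28505980-28510892) had 5674 and 5169 against 3719 and 3958. SNHG3 carries SNORA73A and SNORA73B, the U17 RNAs, which act in cleavage of the ribosomal RNA precursor and do not guide a modification. Their log2 fold changes were -0.56 (SE 0.0937, adjusted p = 0.00166) and -0.50 (SE 0.0757, adjusted p = 0.00105).

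SNHG1 (chr11:62851978-62855953), also known as the U22 host gene, holds 8 C/D snoRNAs from SNORD22 to SNORD31 and had the smallest change of the called members. Its counts were 8718 and 7585 with DMSO and 6078 and 6807 with dBET1, and the means 269 ± 1.94 and 213 ± 14.5 CPM gave a log2 fold change of -0.34 (SE 0.0762, adjusted p = 0.00692). The call was lost with library totals in place of TMM factors (adjusted p = 0.202) and without dBET1 replicate 1 (adjusted p = 0.138). SNHG19 (chr16:2154792-2155405), the host of SNORD60, was uneven between controls, with 797 and 1201 counts against 657 and 541. Its log2 fold change of -0.76 (SE 0.245, adjusted p = 0.0305) was -0.33 without DMSO replicate 2, where the call was lost (adjusted p = 0.0865), -0.63 without dBET1 replicate 2, where it was lost too (adjusted p = 0.0772), and -1.14 without DMSO replicate 1. The call of SNHG19 was also lost with library totals (adjusted p = 0.0785) and with no count filter (adjusted p = 0.121). SNHG7 (chr9:136721366-136728184), with SNORA17A and SNORA17B, had 1057 and 1204 counts against 806 and 848, a log2 fold change of -0.46 (SE 0.142, adjusted p = 0.0257), and its call was lost without dBET1 replicate 1 (-0.44, adjusted p = 0.103) and without dBET1 replicate 2 (-0.50, adjusted p = 0.0633). The call of SNHG7 was lost as well with library totals (-0.25, adjusted p = 0.156) and with no count filter (-0.51, adjusted p = 0.0751), and without DMSO replicate 2 the log2 fold change was -0.28 (adjusted p = 0.0468).

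Of the 4 hosts of scaRNAs, whose products modify spliceosomal RNA in Cajal bodies, 3 were called lower (75.0%). Among all tested genes 27.6% were lower, and 45.7% of those with an average log2 CPM of at least 4. SNHG10 (chr14:95521943-95534889), with SCARNA13, had 548 and 574 counts with DMSO and 271 and 345 with dBET1, a log2 fold change of -0.87 (SE 0.174, adjusted p = 0.00385). SNHG20 (chr17:77086716-77099902), with SCARNA16, had 753 and 838 against 541 and 548, at -0.55 (SE 0.147, adjusted p = 0.0138). SNHG21 (chr15:82750564-82757206), with SCARNA15, had 141 and 146 against 87 and 77, at -0.81 (SE 0.244, adjusted p = 0.0235). All 3 stood below the DMSO libraries in both dBET1 libraries, and the groups did not overlap in 79.3% of all tested genes either. Without dBET1 replicate 1 the calls of SNHG20 (-0.56) and SNHG21 (-0.92) were lost. Without dBET1 replicate 2, SNHG21 was at -0.73 (adjusted p = 0.112). With library totals neither SNHG20 (-0.34, adjusted p = 0.0727) nor SNHG21 (-0.60, adjusted p = 0.0643) was called, and with DESeq2 SNHG21 was not (-0.84, adjusted p = 0.0639). The remaining host, SNHG22 (chr18:49813965-49851059) with SCARNA17, had 23 and 24 counts against 60 and 31, which did not pass the test (log2 fold change 0.95, SE 0.430, adjusted p = 0.0945). It was called higher with library totals (1.16, adjusted p = 0.0463) and without dBET1 replicate 2, its lower dBET1 library (1.34, adjusted p = 0.0478), and was at 0.38 without dBET1 replicate 1 (adjusted p = 0.637).

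The 10 tested host genes that were not called include some of the most abundant. SNHG5 (chr6:85650491-85678932), with SNORD50A and SNORD50B, had 7664 and 8011 counts with DMSO and 8509 and 8563 with dBET1, a log2 fold change of 0.12 (SE 0.0977, adjusted p = 0.335). SNHG12 (chr1:28578538-28583132), with SNORD99 and 3 H/ACA RNAs, had 1743 and 1740 against 1511 and 1804, at -0.07 (SE 0.115, adjusted p = 0.607). SNHG8 (chr4:118278703-118285316), with SNORA24, had 870 and 935 against 1013 and 1006, at 0.16 (SE 0.127, adjusted p = 0.326). In all 3 the CPM of the groups overlapped, and a p that misses the threshold does not show that their levels were equal. Without DMSO replicate 2, SNHG5 and SNHG8 were called higher, at 0.23 and 0.29 (adjusted p = 0.00405 and 0.0352), and without DMSO replicate 1 they were at -0.04 and -0.02. SNHG11, with SNORA60 and SNORA71E, was at 0.04 (adjusted p = 0.880) from 265 and 283 against 249 and 317 counts. SNHG9, with SNORA78, had 74 and 88 counts against 40 and 54, at -0.79 with an adjusted p of 0.0625, and was called without DMSO replicate 1 (-1.04, adjusted p = 0.0228). SNHG26, with SNORD93, had 131 and 126 against 184 and 141, at 0.34 with an adjusted p of 0.249. The others were low: SNHG25 with SNORD104 had 86 to 121 counts per library, SNHG27 had 6 to 34 and SNHG31 had 8 to 13, and none of these 3 passed the test. SNHG27 was called lower without dBET1 replicate 2, its higher dBET1 library (log2 fold change -2.27, adjusted p = 0.0381).

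Among the genes with a row, 2 did not pass the count filter. SNHG14 (chr15:24978583-25420336) spans the imprinted SNRPN region, holds 83 C/D snoRNAs in RefSeq and is mainly a neuronal transcript, and it had 8 and 4 counts with DMSO and 7 and 3 with dBET1. SNHG18 had 0 counts in all 4 libraries.

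Summed over all members with a row, the host genes reached 2010 and 2255 CPM with DMSO and 2330 and 2353 CPM with dBET1. Of the raw counts of each library, before TMM scaling, they took 0.189% and 0.207% with DMSO and 0.250% and 0.253% with dBET1. These shares rose by more than the TMM-scaled sums. The 7 genes that rose went from 769 and 866 CPM to 1314 and 1285 CPM, and the 11 that fell went from 907 and 986 CPM to 625 and 673 CPM. In sums, the rise was thus larger than the fall although more genes fell, and GAS5 and SNHG29 hold most of the rise.

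**Figure D2:**
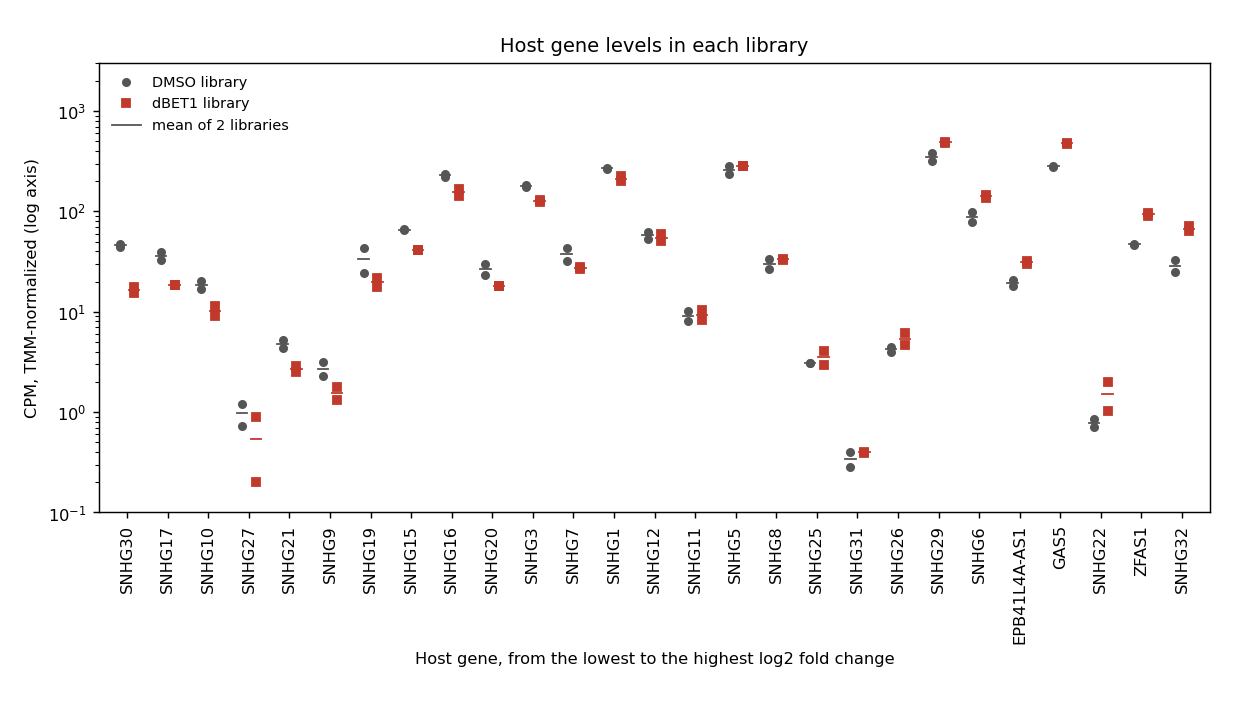
CPM on TMM-normalized library sizes (log axis) of 27 tested host genes in each DMSO library (grey circles) and each dBET1 library (red squares), with lines at the means, ordered by log2 fold change. SNHG28 is not drawn because a DMSO library had 0 counts. The libraries of a group lie close together for GAS5, ZFAS1 and SNHG15 and apart for SNHG19, SNHG27 and SNHG22.

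The host genes were also grouped by the class of the RNAs within their bounds, where introns were not checked. Among all tested genes 28.0% were higher and 27.6% lower. Of those with an average log2 CPM of at least 4, 20.7% were higher and 45.7% lower. Of the 10 tested hosts of C/D snoRNAs alone, 4 rose and 4 fell, with a median log2 fold change of 0.23. Of the 9 tested hosts of H/ACA snoRNAs alone, 1 rose (11.1%) and 4 fell (44.4%), with a median of -0.46. In both classes the share that fell was near the 45.7% of well-expressed genes. The 4 hosts of scaRNAs had a median of -0.68, and the 3 hosts with both C/D and H/ACA RNAs, GAS5, SNHG12 and SNHG25, had a median of 0.19 with GAS5 higher. SNHG27 and SNHG28 hold no named snoRNA. The difference between classes was not tested, since the classes are small and their members were chosen with these data known.

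The mature small RNAs themselves were not measured well in these libraries, which were described as mRNA profiles, and mature snoRNAs are short and have no poly(A) tail. Inside the hosts other than SNHG14, 55 snoRNA or scaRNA genes had a row, of which 5 had 0 counts and 24 had exactly 1 count in every library. Only 8 passed the count filter, and 0 were called by edgeR, 1 at an unadjusted p under 0.05. DESeq2 called 0 as well, with 0 at an unadjusted p under 0.05 among 50 rows with a p-value. Summed, the 55 rows reached 11.2 and 12.6 CPM with DMSO and 11.6 and 9.43 CPM with dBET1, a small part of the CPM of their hosts. SCARNA13 had 7 and 7 counts with DMSO and 23 and 14 with dBET1, while its host SNHG10 fell, and SNORD12C had 15 and 11 against 5 and 6, while its host ZFAS1 rose. Neither small RNA passed the test (adjusted p = 0.0576 and 0.0974), and reads from unspliced host RNA count on the same bases. The log2 fold changes of the 8 tested rows ran from -1.21 to 1.39, with a median of -0.46. How the others moved beside their hosts is not given here, so these 2 show no general pattern.

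Per length, SNHG1 had the highest mean with DMSO, within the spread of SNHG19, and GAS5 had the highest with dBET1. Levels were set per kb of the union of annotated exons in GENCODE. With DMSO, SNHG1 reached 67.5 ± 0.487 CPM per kb, GAS5 57.3 ± 0.916, SNHG19 54.7 ± 21.1, SNHG3 43.8 ± 1.74, SNHG16 39.8 ± 1.73, SNHG29 39.3 ± 4.77 and SNHG6 35.0 ± 5.15. SNHG1 lay above GAS5 by more than the spread, whereas SNHG19 overlapped SNHG1, GAS5 and SNHG3, and SNHG16, SNHG29 and SNHG6 overlapped each its next neighbour. With dBET1, GAS5 reached 96.8 ± 0.926 CPM per kb, above SNHG6 at 55.8 ± 3.17, SNHG29 at 54.6 ± 0.724 and SNHG1 at 53.5 ± 3.64, which did not differ beyond their spread, and SNHG32 followed at 37.3 ± 3.08. Of the 27 steps in the order, 16 with DMSO and 14 with dBET1 joined genes whose ranges of mean ± SD overlapped. SNHG30 went from place 8 to place 14, ZFAS1 from place 15 to place 11 and SNHG32 from place 11 to place 5. The order depends on the length used: per kb of the canonical transcript, a choice made after the data were seen, SNHG29, SNHG16 and GAS5 led with DMSO and SNHG29, GAS5 and SNHG16 with dBET1.

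A pyrimidine tract at the first base, as spelled out beside the sequences above, was counted after the calls were known. It stood at the RefSeq start of 7 of the 27 host genes with a RefSeq promoter (25.9%), against 4.07% of 35116 RefSeq starts and 5.15% of 15564 starts of tested genes. These 7 include SNHG4 and SNHG18, which have no test here. At the first base of the GENCODE canonical transcript it stood in 4 of 31 host genes (12.9%), against 2.75% of 62700 transcripts and 4.57% of 16631 transcripts of tested genes. Taking either annotation, GAS5, SNHG29, SNHG32 and ZFAS1 among the 7 genes that rose had the tract, SNHG19 among the 11 that fell, and SNHG5 and SNHG12 among the 10 not called. The match depends on the exact base that an annotation takes as the start, which was not measured here. SNHG16 (chr17:76557744-76557793, plus strand), which fell, is shown in the same window as the ZFAS1 start above: a like run of T and C stands a few bases after its RefSeq start and was not counted.
SNHG16: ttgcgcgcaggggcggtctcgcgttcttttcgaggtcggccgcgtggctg

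Promoters of the host genes, from 250 bases before the RefSeq start to 50 bases after it, held few of the motifs searched after the calls were known. On both strands, CACGTG, the E-box of MYC and related factors, stood in 2 of 27 host gene promoters (7.41%) against 7.26% of 35116 RefSeq promoters. CCGGAAG, a core of ETS sites, stood in 2 of 27 (7.41%) against 10.3%, and TGACGTCA, the cyclic AMP response element, in 0 of 27 against 1.85%. Among 15564 promoters of tested genes, the shares were 9.48% for CACGTG, 16.9% for CCGGAAG and 2.90% for TGACGTCA. The E-boxes were in SNHG30 and SNHG7, which both fell, and the CCGGAAG matches were in SNHG20, which fell, and SNHG26, which was not called. The SNHG30 promoter (chr17:35567864-35568163, plus strand) is shown because this host gene fell the most, with the E-box, whose first base lies 65 bases before the start, in capitals.
SNHG30: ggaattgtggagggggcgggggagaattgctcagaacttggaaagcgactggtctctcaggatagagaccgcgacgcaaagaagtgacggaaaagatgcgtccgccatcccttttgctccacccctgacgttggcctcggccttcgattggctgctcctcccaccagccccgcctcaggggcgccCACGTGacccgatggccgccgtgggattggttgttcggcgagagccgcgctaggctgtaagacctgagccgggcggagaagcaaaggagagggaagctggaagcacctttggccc
A match is a run of letters and not a measured binding site, and most of the host genes that fell had none of these motifs in this window.

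Several host genes share a promoter region or exons with a protein-coding gene, and host and neighbour did not always move alike. SNHG1 starts 51 bases from SLC3A2, a gene of the opposite strand that encodes the heavy chain of an amino acid transporter. SLC3A2 had 10282 and 9607 counts with DMSO and 12146 and 11859 with dBET1, a log2 fold change of 0.27 (SE 0.0743, adjusted p = 0.0157), while SNHG1 fell. The ratio of SNHG1 to SLC3A2 counts was 0.848 and 0.790 with DMSO and 0.50 and 0.574 with dBET1, with both dBET1 libraries below both DMSO libraries. ZFAS1 starts 248 bases from ZNFX1, which encodes a helicase-like zinc finger protein of antiviral defence, and the pair share 249 exon bases. ZNFX1 had 1493 and 1162 counts against 1425 and 1416 (log2 fold change 0.11, SE 0.0945, adjusted p = 0.363), so the ratio of ZFAS1 to ZNFX1 counts went from 1.01 and 1.16 to 2.03 and 1.96.

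GAS5 starts 800 bases from ZBTB37, a zinc finger gene that was also higher (0.62, SE 0.170, adjusted p = 0.0165). SNHG19 starts 293 bases from TRAF7, a ubiquitin ligase gene at -0.06 (adjusted p = 0.491), and SNHG9, not called, starts 54 bases from RPS2, a ribosomal protein gene that was higher (0.28, adjusted p = 0.0437).

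In other pairs host and neighbour fell together. GLRX5, of iron-sulfur cluster assembly, which shares 301 exon bases with SNHG10, was at -0.74 (adjusted p = 0.00121). RCC1, the exchange factor of RAN, shares 242 exon bases of the same strand with SNHG3 and was at -0.39 (adjusted p = 0.00254). DIPK1B shares 1482 exon bases with SNHG7 and was at -0.82 (adjusted p = 0.00536). MCMDC2 shares 1488 exon bases with SNHG6 and had 2 and 8 counts with DMSO and 59 and 27 with dBET1, few beside the counts of SNHG6. The library kit named in the labels does not mark strand, and reads from shared bases cannot be told apart, so for the pairs with shared exons the counts of 1 gene may hold reads of the other.

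**Figure D3:**
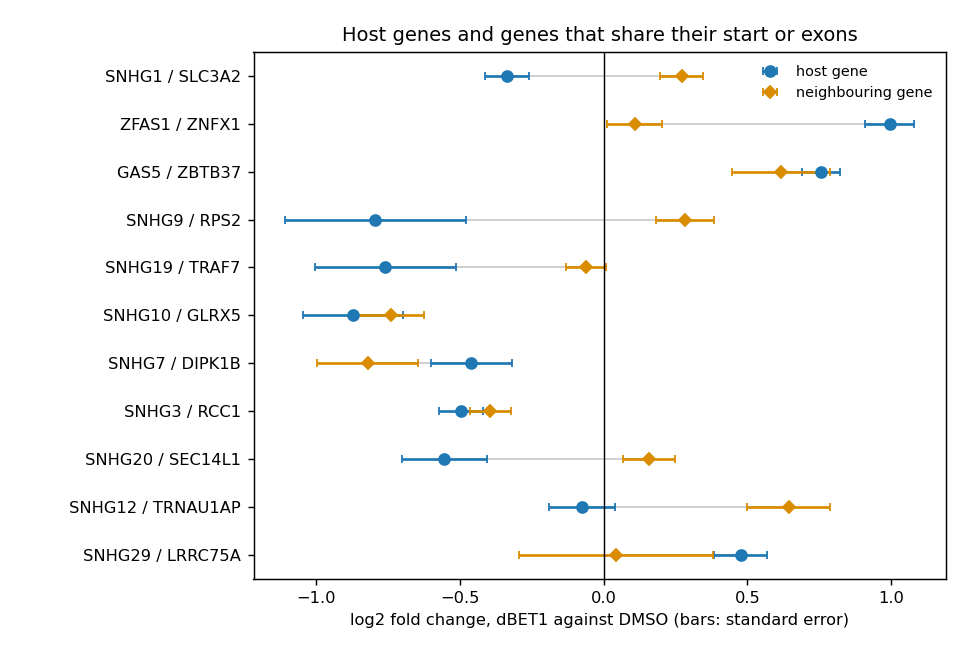
Log2 fold change (x axis, bars are standard errors) of 11 host genes (blue circles) and of a gene that shares their start region or exons (orange diamonds), 1 pair per line. SNHG1 at -0.34 lies opposite SLC3A2 at 0.27, while SNHG10 and GLRX5 lie together at -0.87 and -0.74.

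Genes of the proteins that turn the small RNAs into particles nearly all fell. Among all tested genes 27.6% were lower, and 45.7% of those with an average log2 CPM of at least 4. The C/D core consists of the methyltransferase FBL and its partners NOP56, NOP58 and SNU13, and 4 of 4 were lower: NOP56 went from 768 ± 38.7 to 267 ± 11.4 CPM (log2 fold change -1.52, adjusted p = 1.0e-05), SNU13 was at -1.29, FBL at -1.21 and NOP58 at -0.84. The H/ACA core consists of the pseudouridine synthase DKC1 with NHP2, GAR1 and NOP10, and 4 of 4 were lower as well, at -1.21 for DKC1 (371 ± 2.07 to 161 ± 6.64 CPM), -1.60 for NHP2, -1.57 for GAR1 and -1.09 for NOP10. NOP56 is itself a protein-coding snoRNA host. The core lists had medians of -1.25 and -1.39, beside -0.02 for the host genes and 0.05 for all tested genes.

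Of 11 factors that assemble the particles, 10 were lower and PIH1D1 was not called, with a median of -0.85, and the smallest p-values were those of the chaperone NOLC1 (-1.51), the ATPases RUVBL2 (-1.58) and RUVBL1 (-1.38) and the DKC1 chaperone SHQ1 (-0.99). Of 10 genes that release or trim snoRNAs, 6 were lower (60.0%). That share stands beside 27.6% of all tested genes and 45.7% of those with an average log2 CPM of at least 4. The falls were led by the exosome subunits EXOSC3 (-1.25) and EXOSC10 (-0.61), the cap methylase TGS1 (-0.68) and the intron-binding helicase AQR (-0.52). The exonuclease XRN1, named after its value was seen, was the 1 that rose (0.76, adjusted p = 0.00763). The median was -0.34.

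Nonsense-mediated decay removes many spliced host RNAs, and of 17 of its genes 8 were lower (47.1%) and 9 were not called, with a median of -0.20. Lower genes made up 27.6% of all tested genes and 45.7% of those with an average log2 CPM of at least 4, so the count is near that of well-expressed genes. The 4 with the smallest p-values were all exon junction proteins or their partners: MAGOH (-1.22), EIF4A3 (-0.76), RBM8A (-0.64) and RNPS1 (-0.37). UPF1, the central helicase of the pathway and also named after its value was seen, was at -0.02 (adjusted p = 0.847), from 312 ± 2.75 to 308 ± 10.7 CPM.

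Messenger RNAs with a TOP tract other than those of ribosomal proteins moved in both directions: of 15, 5 rose (33.3%) and 4 fell (26.7%), with a median of 0.14, near the 28.0% and 27.6% of all tested genes. The elongation factor EEF2 was at 1.02 (adjusted p = 2.1e-05), and TPT1 at 0.48 (adjusted p = 0.000602), while NPM1, the nucleolar chaperone, was at -0.77 (adjusted p = 5.7e-05) and the splicing factor HNRNPA1 at -0.59 (adjusted p = 0.000213). Among 8 genes known to act on TOP messages, 2 rose (25.0%) and 5 fell (62.5%), with a median of -0.33. Of the tested genes with an average log2 CPM of at least 4, 20.7% were higher and 45.7% lower. CNBP, which binds TOP messages, was at -0.99, EIF4EBP1 and RPTOR of the mTOR pathway at -1.19 and -0.87, and EIF4EBP2 at 1.08. EIF4EBP2 and MTOR were the 2 that rose.

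**Figure D4:**
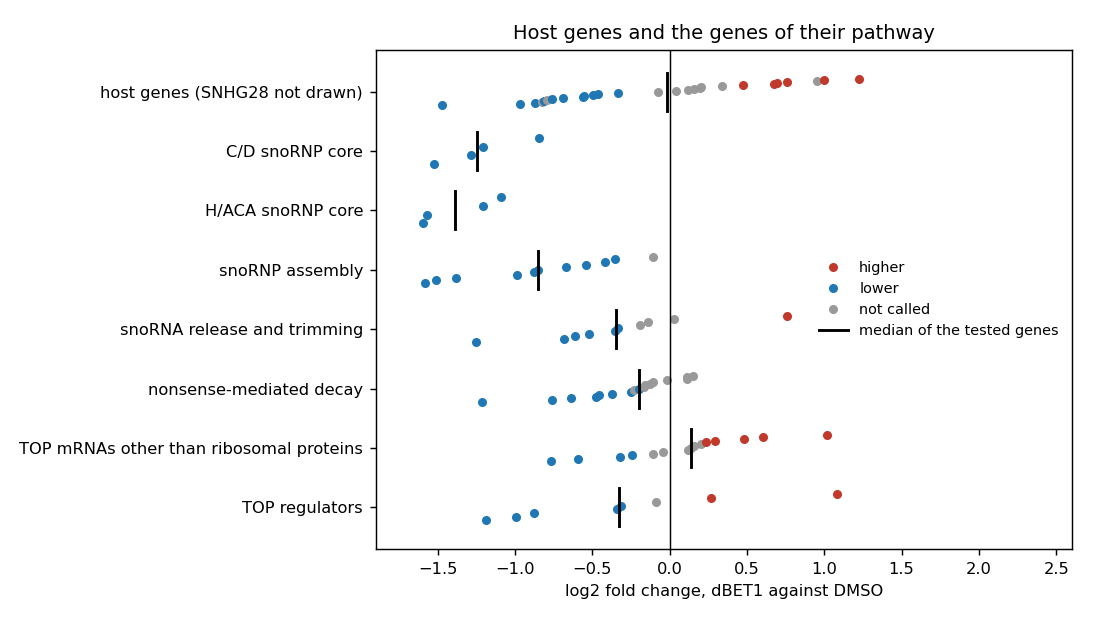
Log2 fold change (x axis) of each tested host gene, without SNHG28, and of each gene of 7 lists of the same pathway, 1 list per line, with red for higher, blue for lower and grey for not called at an adjusted p under 0.05, and black bars at the medians of the tested genes. The host genes and the TOP messages spread on both sides of 0, whereas the 8 core particle proteins lie at -0.84 or below.

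SnoRNAs also lie within the bounds of protein-coding genes on the same strand, and 216 such hosts were tested out of 269 with a row. Of these, 43 were higher (19.9%) and 91 lower (42.1%), with a median of -0.18, beside 25.0% and 39.3% and a median of -0.02 for the noncoding host genes. The 4 with the smallest p-values all fell: ODC1 of polyamine synthesis (-1.75), the mitochondrial chaperone HSPA9 (-1.55), the nucleolar protein NCL (-1.41) and NOP56 (-1.52). Other long noncoding RNA genes were split otherwise, with 36.8% of 2377 tested genes higher, 6.82% lower and a median of 0.67, and their summed level was 9880 and 9849 CPM with DMSO and 12363 and 12090 CPM with dBET1. Among protein-coding genes, 27.3% of 12509 were higher and 34.2% lower, with a median of -0.05. Whether the host genes differ from these sets was not tested, since the members were chosen with earlier results of these data known.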

How the data were processed

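RNA of cells labelled NB4 was sequenced by the authors as paired-end libraries, 2 per group. The authors aligned the reads to hg38 (Ensembl) with HISAT2 2.2.0, per the labels, estimated abundances with StringTie and deposited raw gene counts (whole numbers, not normalized). The step from abundances to counts, its strand setting and the annotation release are not given in the sources used here. All 4 columns were mapped to samples by name (0 columns unused), and 0 rows named no gene.

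Counts were filtered with filterByExpr, scaled with TMM factors (0.918 to 1.08) and compared by edgeR 4.0.16's two-sided quasi-likelihood test in R 4.3.3 with group as the only term and Benjamini-Hochberg adjustment over 17971 genes. The study used DESeq2 and required an absolute log2 fold change above 1 and an adjusted p under 0.05. The standard error is the size of the log2 fold change divided by the square root of F. CPM are counts per 1000000 of TMM-scaled library size. Within groups, libraries differed beyond counting error (chi-square per degree of freedom 23.6 and 8.14), with a biological coefficient of variation of 0.123, and SDs rest on 2 values. In 5 simulated sets with 200 changed genes, 84.8% to 93.6% of changes of 1 on the log2 scale were called, with at most 14 false calls. Those sets gave every gene the same dispersion and changed only genes with ample counts. In the data far more genes were called and replicate spread was unequal, so these rates do not carry over to it or to host genes with few counts.

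Symbols, exons and positions are from GENCODE release 44, which held 56105 of the 64252 gene identifiers. Promoters and snoRNA positions are from RefSeq tables of GRCh38.p14, with the strand of the host gene. For the classes, an RNA was assigned to a host gene when it lay within the bounds of that gene. Neither introns nor the strand of the RNA were checked. SNHG6, SNHG9, SNHG15 and SNHG25 have no promoter in the table used. Every tested host gene was named, the core particle proteins were all named, and up to 4 genes with the smallest p were named from each other list. The members and lists were chosen with earlier results of these data known. Alternatives were DESeq2 1.42.0, its size factors, library totals, a minimum of 10 counts in every library, no count filter, counts divided by 2, leaving out single libraries and a block for the replicate number. Tables were handled with Python 3.11.15. Some neighbouring and marker genes are not reported here.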

Additional observations from a re-analysis of the deposited data

How the results depend on the processing

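Of the 18 called host genes, 12 kept their call in every setting run and 0 changed direction. The number lower was 11 and fell to 6 with library totals only and to 1 with an absolute log2 fold change above 1, and leaving out 1 library gave 7 to 12, with 7 without dBET1 replicate 1. The number higher was 7, with 2 above that fold change limit, 10 with library totals only and 6 to 9 when 1 library was left out, and the other settings gave 9 to 11 lower and 6 or 7 higher. With library totals the median of all tested genes moved from 0.05 to 0.26 and that of the host genes from -0.02 to 0.19, so relative to all genes the host genes were at -0.07 and -0.06. That difference was -0.33 with DESeq2 and -0.32 with no count filter. There the median of all genes was over 33380 genes (0.28 and 0.25), against 17971 genes with the count filter. The host gene medians, over the same 28 genes, were -0.05 and -0.07. The difference was -0.26 without DMSO replicate 1, -0.25 without dBET1 replicate 2 and -0.20 with counts divided by 2. In the other settings it was between -0.10 and -0.02. Changes of direction occurred among uncalled genes: SNHG11 was at -0.014 with no count filter and between -0.15 and 0.19 when 1 library was left out, and SNHG12 was at 0.14 with library totals and between -0.21 and 0.030 when 1 library was left out. With 1 library left out, SNHG5 ranged from -0.043 to 0.23, SNHG8 from -0.023 to 0.29, SNHG25 from -0.044 to 0.38 and SNHG31 from -0.038 to 0.45. The cause of these changes was not tested, and the lone library left in a group is assumed to vary like the other group. With the replicate number as a block, 11 were lower and 7 higher and no call changed. The deviations of same-numbered libraries had a correlation of -0.00739 over 11969 genes. With 2 libraries per group, this value cannot show whether the replicate numbers mark paired libraries. Genes with few counts, such as SNHG28, SNHG27 and SNHG31, are limited by depth.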
